A study of Danio rerio with 2 samples.

Results

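Isolated peaks are the open chromatin regions that stand alone, with no other listed peak for at least 20 kb on either side. They were picked by their position in the peak list, not by their counts. The list itself rests on detected signal, so the gaps depend on which peaks were listed. Members had to lie on 1 of the 25 numbered chromosomes, and the gap to the previous peak and the gap to the next peak both had to reach 20000 bp. The first and last peaks of each chromosome and chromosome 4 from 30 to 70 Mb were left out. This gave 1207 isolated peaks, 0.506% of the 238369 peaks listed and 0.518% of the 233113 peaks that the rule could judge. The other 231906 of those peaks, called other peaks here, served for comparison.

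The assay was ATAC-seq, which uses the transposase Tn5 to cut and tag DNA left free by nucleosomes. It was applied to GFP-sorted retinal pigment epithelium (RPE) cells of zebrafish embryos at 23 hpf (hours after fertilization). The single group had 2 libraries, RPE replicate 1 and RPE replicate 2, with 23996755 and 19653966 counts in peaks. All cells came from whole embryos with the transgene tg(Enh-1_bHLHe40:GFP), a reporter driven by an enhancer of bhlhe40. They were pooled over many embryos, and sorting picked cells that switch on this enhancer. The study states that the enhancer is also active in periocular neural crest and the ciliary marginal zone once the optic cup has folded. It expects minor contamination at most at 23 hpf. Its reporting summary calls the sorted population very continuous and gives only a lower bound for purity, short of complete purity. Libraries of the neural retina (NR) were not analysed here, and because genes of this genome build were not used, RPE marker genes could not be examined.

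Open chromatin is unevenly spread in vertebrate genomes. Promoters and enhancers cluster around genes, above all around developmental regulators with many enhancers, whereas long gene-poor intervals are mostly packed into closed chromatin. The RPE, a flat and later pigmented sheet behind the neural retina, forms from the same optic vesicle and takes up its own enhancer program. A peak that stands alone can therefore be a lone promoter, a distant enhancer, or a weak region at the edge of detection, and position alone does not tell these apart.

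Isolated peaks were narrower and less open than other peaks in both libraries. Their median width was 212 bp, against 263 bp for other peaks. In RPE replicate 1 the median isolated peak had 0.792 CPM (counts scaled to a library total of 1000000 in peaks) and the median other peak 1.79 CPM. In RPE replicate 2 the medians were 1.07 CPM and 1.98 CPM. Over both libraries the median was 0.930 CPM ± 0.196 for isolated peaks and 1.89 CPM ± 0.136 for other peaks (SD, n = 2 each), so the gap between the sets was wider than the spread between libraries. In counts, the median isolated peak rested on 19 and 21 counts in replicates 1 and 2, against 43 and 39 for other peaks.

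The shift held on every numbered chromosome. The median width of isolated peaks was below that of other peaks on 25 of 25 chromosomes, with ranges of 165.5 to 248 bp and 255 to 268 bp. Median CPM was also lower on 25 of 25 chromosomes in each library. In replicate 1 it ran from 0.542 to 1.63 CPM in isolated peaks and from 1.63 to 2.04 CPM in other peaks. In replicate 2 it ran from 0.738 to 1.53 CPM in isolated peaks and from 1.83 to 2.14 CPM in other peaks. Peaks and chromosomes are not replicates. With 2 libraries of 1 group, a sign-flip test over libraries cannot give a two-sided p under 0.5. No p is therefore given for these differences.

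Depth limited what could be read at a single isolated peak. Of the 1207 members, 757 (62.7%) had at least 10 counts in both libraries, against 80.9% of other peaks. Another 194 (16.1%) stayed under 10 counts in both, against 7.45% of other peaks. No count was found at 24 isolated peaks in replicate 1 and at 5 in replicate 2, and 1 peak was at 0 in both. A count of 0 allows up to 3 counts, or 0.125 CPM in replicate 1 and 0.153 CPM in replicate 2. When the weaker peaks were set aside and 10 counts required in each library, the median was 1.62 CPM for isolated and 2.62 CPM for other peaks, a higher level in the same order.

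**Figure D1:**
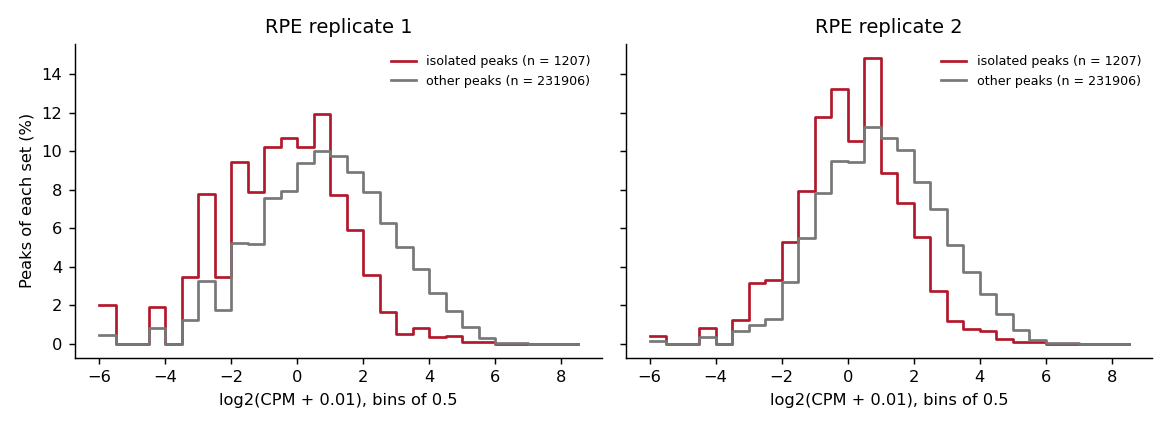
Distribution of log2(CPM + 0.01) over isolated peaks (red) and other peaks (grey) in each RPE library, as the percentage of each set per bin of 0.5; peaks without counts fall into the lowest bin. The isolated peaks are shifted to lower values in both libraries, with medians of 0.792 and 1.07 CPM against 1.79 and 1.98 CPM, and a thin right tail remains.

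The distribution of the mean CPM of both libraries showed at which levels the sets parted. Under 0.25 CPM lay 124 isolated peaks (10.3%, against 3.95% of other peaks), and from 0.25 to 0.5 CPM another 246 (20.4%, against 11.1%). Between 1 and 2 CPM the sets were close, with 23.9% of isolated and 20.1% of other peaks. From 5 to 10 CPM lay 3.98% of isolated peaks and 12.7% of other peaks. At 20 CPM or more there were 9 isolated peaks (0.746%), against 3.46% of other peaks.

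In total the isolated peaks covered 285 kb of the 70.9 Mb in peaks, or 0.402%. Of all counts, 0.193% fell into them in replicate 1, with an exact (Clopper-Pearson) 95% interval of 0.191 to 0.195%. In replicate 2 it was 0.239%, with an interval of 0.237 to 0.241%. The mean share was 0.216% ± 0.0325 (SD, n = 2). The share of counts was thus below both the share of peaks and the share of bases in each library. These intervals cover counting error only.

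Isolated peaks were also less open per base. Divided by width, the median isolated peak had 4.27 CPM per kb in replicate 1 and 5.80 CPM per kb in replicate 2, against 6.88 and 7.77 CPM per kb for other peaks. Within classes of equal width the order was kept. Among peaks of 200 to under 300 bp, 360 isolated peaks had medians of 1.21 and 1.53 CPM in replicates 1 and 2, against 1.67 and 1.88 CPM in other peaks. From 400 to under 600 bp, 82 isolated peaks had 3.27 and 4.48 CPM, against 6.88 and 6.77 CPM. At the smallest width in the list, 100 bp, 114 isolated peaks (9.44% of them, against 6.01% of other peaks) had 0.250 and 0.382 CPM, against 0.292 and 0.458 CPM. Only 121 isolated peaks (10.02%) were 400 bp or wider, against 22.1% of other peaks. Width and mean CPM went together to the same degree in both sets, with a Spearman correlation of 0.880 across the 1207 isolated and 0.885 across the other peaks. Counts of a peak rise with the bases it covers, so the variables share a source.

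The fall in width and openness was gradual rather than a step at 20 kb. When all peaks that the rule could judge were ordered by the smaller of their 2 gaps, the median width was highest at 1 to 2 kb, with 276 bp. It was 249 bp at 5 to 10 kb, 224 bp at 10 to 20 kb, 214 bp at 20 to 30 kb, 212 bp at 30 to 50 kb and 187.5 bp in the 64 peaks at 50 kb or more. Median CPM in replicate 1 was 2.21 at 1 to 2 kb, 1.17 at 5 to 10 kb, 0.875 at 10 to 20 kb, 0.792 at 20 to 30 kb, 0.875 at 30 to 50 kb and 0.625 at 50 kb or more. Replicate 2 gave 2.34, 1.42, 1.17, 1.07, 1.07 and 0.967 CPM for these classes, so CPM was not lower at 30 to 50 kb than at 20 to 30 kb in either library. Most of the fall lay between 2 and 20 kb, that is, among peaks that were not isolated. Peaks just inside the threshold (20 to 22 kb, 312 peaks) had medians of 222 bp, 0.917 CPM and 1.17 CPM, and those just outside it (18 to 20 kb, 425 peaks) had 236 bp, 0.917 CPM and 1.37 CPM in replicates 1 and 2. Among members, the smaller gap carried no further order, with Spearman correlations of -0.02 with mean CPM and -0.04 with width across 1207 peaks.

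**Figure D2:**
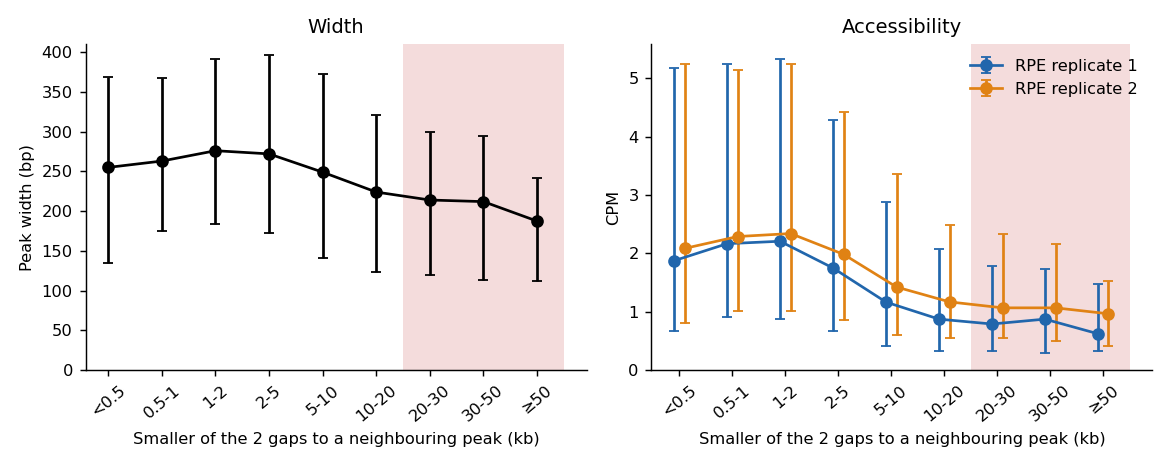
Median width in bp (left) and median CPM in each RPE library (right) of all 233113 peaks judged, by class of the smaller of both gaps in kb; bars span the quartiles over peaks, and the shaded classes from 20 kb on are the isolated peaks. Medians fall from the class of 1 to 2 kb to that of 20 to 30 kb. At 30 to 50 kb the width is 212 bp and CPM is not lower (0.875 in replicate 1, 1.07 in replicate 2), and the 64 peaks at 50 kb or more have the lowest medians.

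The gaps themselves were mostly moderate. The median gap was 30.4 kb on either side of an isolated peak, and 868 members (71.9%) had a smaller gap under 30 kb. Another 275 lay in the class of 30 to 50 kb and 64 at 50 kb or more. For 3 isolated peaks both gaps exceeded 100 kb, and for 1 both exceeded 200 kb. Together, the 2 gaps of a member had a median of 65.4 kb and reached 667 kb.

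The chromatin around isolated peaks was sparse far beyond 20 kb, though not for all of them. A median of 15 other peaks lay within 100 kb of an isolated peak, with quartiles of 10 and 21, against 41 around other peaks, with quartiles of 32 and 51. These counts include the 20 kb on each side that the rule keeps empty, which fixes part of the difference. Within 500 kb the medians were 126 and 193 peaks. Between 50 and 60 kb from the midpoint the density was 1.03 peaks per 10 kb around isolated peaks and 2.05 around other peaks, and at 400 to 410 kb it was 1.53 and 1.85. Yet 363 isolated peaks (30.1%) had at least 150 peaks within 500 kb, against 82.6% of other peaks. Of the 363, 288 had under 200 and 75 had 200 or more, above the median of 193 around other peaks. For those 75 the word sparse applies only to their immediate surroundings. Fewer than 50 peaks within 500 kb were found around 26 members (2.15%), against 0.0815% of other peaks.

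**Figure D3:**
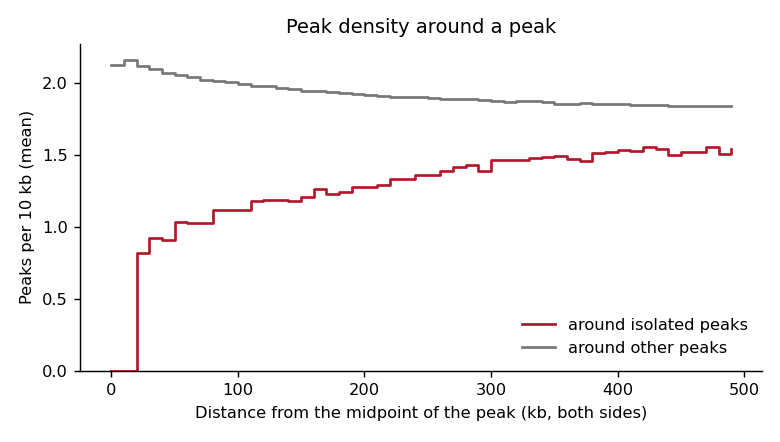
Mean number of peaks per 10 kb against distance from the midpoint of a peak in kb, both sides averaged, around isolated peaks (red) and other peaks (grey). The empty first 20 kb around isolated peaks follow from the rule; beyond them the density is 1.03 at 50 to 60 kb and 1.53 at 400 to 410 kb, below that around other peaks (2.05 and 1.85) over the whole range to 500 kb.

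Isolated peaks were also compared with other peaks of equally sparse surroundings. With 100 to under 150 peaks within 500 kb, the 516 isolated peaks had medians of 0.750 and 1.02 CPM in replicates 1 and 2, against 1.33 and 1.58 CPM in other peaks. With 200 or more, the 75 isolated peaks had 1.17 and 1.42 CPM, against 2.17 and 2.34 CPM. The difference in median CPM narrowed in the sparsest classes. With 50 to under 100 peaks the 302 isolated peaks had 0.833 and 1.12 CPM, against 1.08 and 1.32 CPM, and with fewer than 50 the 26 isolated peaks had 1.23 and 1.45 CPM, against 1.13 and 1.22 CPM in 189 other peaks. In that last and small class the median CPM of isolated peaks was not the lower one. Their quartiles were lower, however, with 0.313 and 1.79 CPM in replicate 1, against 0.375 and 2.25 CPM in other peaks. Both quartiles were also lower in replicate 2. At least 10 counts in both libraries were reached by 61.54% of these isolated peaks and 71.96% of the other peaks. No order of the sets is therefore given for this class. The peaks across the gaps resembled the members they face: 1913 such flanking peaks that were not isolated themselves had a median width of 215 bp and medians of 0.875 and 1.12 CPM.

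Some isolated peaks were neighbours of each other. Neighbours share a gap, so next to an isolated peak 1 of the gaps required is already long enough, and runs follow in part from the rule. Following the list along each chromosome, 775 members stood singly between peaks that were not isolated, while 432 (35.8%) fell into 182 runs of at least 2 neighbouring isolated peaks. The longest run held 6 members on chromosome 1, from 26790443 to 26965469 (danRer10), with 4.08, 2.46, 1.63, 0.167, 0.125 and 0.625 CPM in replicate 1 and 6.87, 2.34, 0.865, 0.254, 0.153 and 0.407 CPM in replicate 2. A run of 5 lay on chromosome 14, from 18062973 to 18192026. Of 1313 megabase windows with a peak that could be judged, 694 (52.9%) had no isolated peak, and 144 windows with at least 3 each held 567 of the 1207 (47.0%). The window from 18 to 19 Mb of chromosome 14 had the most, 11 isolated peaks among 69, and that from 6 to 7 Mb of chromosome 12 came next with 9 among 69.

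Empty stretches of at least 20 kb were counted whether or not they bordered an isolated peak. Outside the left-out part of chromosome 4, 8802 of the 233137 gaps between neighbouring peaks (3.78%) were at least 20 kb long. They summed to 300.01 Mb, or 24.4% of the 1231 Mb between peaks. Most of them bordered no isolated peak: 6639 had no isolated peak at either end, 1913 bordered 1 isolated peak and 250 lay between 2 of them. Stretches of at least 100 kb numbered 156, of which 72 bordered an isolated peak.

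The 5 longest stretches lay on chromosomes 7, 22 and 6. The longest ran over 816 kb on chromosome 7, from 2636754 to 3453165, and neither flanking peak was isolated. On chromosome 22, 631 kb were empty from 27275061 to 27905865. Chromosome 6 had empty stretches of 532 kb from 16751549 to 17283424, bordered by an isolated peak on each side, and of 502 kb from 20871323 to 21372913. The last of the 5, of 398 kb, lay again on chromosome 7, from 4476668 to 4874877. The peaks at their ends had at most 6.04 CPM in replicate 1 and 5.09 CPM in replicate 2. Whether unknown bases or repeats of the assembly fill them was not tested, because no sequence of this build was used.

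Along the chromosomes, isolated peaks and empty stretches were most frequent between the ends and the middle. On the 24 numbered chromosomes other than chromosome 4, with positions given in percent of the length up to the last peak, the interval from 20 to 40% held 30.2% of 1158 isolated peaks, against 18.4% of other peaks, and the share was higher for isolated peaks on 18 of 24 chromosomes. The middle, from 40 to 60%, held 13.2% of isolated and 22.3% of other peaks, and the isolated share was the higher one on 3 of 24. The outermost 10% at each end together held 13.6% of isolated and 21.1% of other peaks, with the isolated share higher on 4 of 24. A lower second rise, from 70 to 80%, had 12.3% of isolated and 9.47% of other peaks, with the isolated share higher on 14 of 24 chromosomes. These intervals were not set in advance. The counts of chromosomes come from the same peaks, so they describe the pattern and are no separate support. Empty stretches followed the same order, with 30.3% of the length between 20 and 30%, 18.2% between 40 and 50% and 25.1% between 70 and 80%. Since an isolated peak needs an empty stretch on each side, this match follows in part from the rule.

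**Figure D4:**
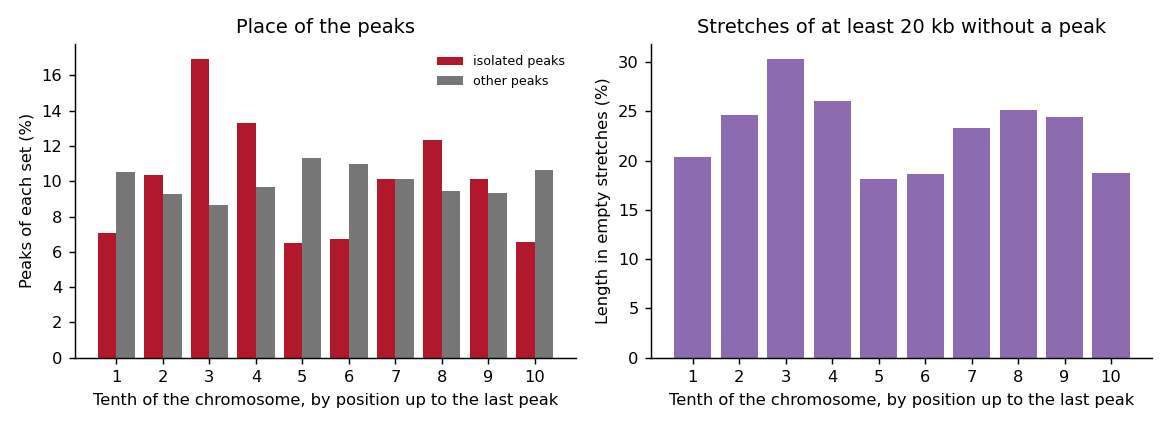
Left, percentage of isolated peaks (red) and other peaks (grey) in each interval of 10% of the chromosome length up to the last peak, over 24 chromosomes without chromosome 4; right, percentage of the length of each interval that lies in stretches of at least 20 kb without a peak. Both have their highest value from 20 to 30% (16.9% of isolated peaks, 30.3% of the length) and low values from 40 to 60% and at the far end. The match follows in part from the rule, since an isolated peak needs an empty stretch on each side.

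Chromosomes differed in their number of isolated peaks. Leaving aside chromosome 4, they ranged from 49.7 per 100 Mb on chromosome 23, with 23 isolated peaks, to 125 per 100 Mb on chromosome 3, with 78. The length in empty stretches ran from 15.6% on chromosome 23 to 28.6% on chromosome 1. Chromosomes with more peaks per Mb had fewer isolated ones (Spearman correlation -0.77 over 24 chromosomes), which follows in part from the rule, since both count peaks. On the rest of chromosome 4 there were 49 isolated peaks, of which 15 lay between 25 and 30 Mb and 23 beyond 70 Mb, on either side of the part left out. These 49 had medians of 1.63 and 1.53 CPM in replicates 1 and 2, the highest of the 25 chromosomes in replicate 1 and level with chromosome 6 in replicate 2. Without chromosome 4, the median over isolated peaks was still 0.930 CPM.

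A few isolated peaks were strongly open. Of the 1207, 24 (1.99%) were among the 10% of all peaks with the highest mean CPM, against 10.1% of other peaks, and 2 were in the top 1%. In replicate 1 these 24 had a median of 15.4 CPM and in replicate 2 of 16.4 CPM, against 16.9 and 15.9 CPM for other peaks of the top 10%. They were wider, with a median of 731.5 bp against 571 bp, and had fewer counts per base, with 25.02 and 25.6 CPM per kb against 31.4 and 29.2. They held 22.8% of the counts of all isolated peaks in replicate 1 and 19.3% in replicate 2, whereas the top-10% peaks among the other peaks held 48.6% and 45.8% of that set's counts. These shares of counts belong to minorities of unequal size, 1.99% of isolated and 10.1% of other peaks, because 1 CPM limit was used for both. The selection by CPM makes these 24 wide and strong by construction, and no test is given for them.

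The most open isolated peak lay on chromosome 23, from 26300885 to 26302163. It was 1279 bp wide, had 52.5 CPM in replicate 1 and 50.2 CPM in replicate 2 (1259 and 986 counts), and ranked 335th of all peaks. Its gaps were 35.6 and 26.5 kb, but 228 peaks lay within 500 kb, so it stood alone in an otherwise well-filled megabase. The second, on chromosome 16 from 17856799 to 17857324, was compact for its strength. It was 526 bp wide with 33.0 and 36.0 CPM in replicates 1 and 2, or 62.7 and 68.4 CPM per kb, and 91 peaks lay within 500 kb. These were the 2 isolated peaks in the top 1%.

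The next strongest had similar CPM in both libraries. On chromosome 12, the peak from 11267881 to 11268613 (733 bp) had 26.4 CPM in both libraries, with 633 and 519 counts. On chromosome 2, the peak from 15128793 to 15129826 (1034 bp) had 25.4 and 25.3 CPM in replicates 1 and 2, and its gaps of 67.1 and 38.7 kb left it 13 other peaks within 100 kb. Chromosome 3 had a peak from 26722095 to 26722964 (870 bp) with 23.1 and 24.1 CPM. None of these 3 differed between the libraries beyond counting error.

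Lower in this list stood a pair of peaks on chromosome 14. That from 13877899 to 13878629 (731 bp) had 23.4 and 21.7 CPM in replicates 1 and 2 and the largest single gap of the 10, 72.7 kb. That from 19859017 to 19859748 (732 bp) had 19.1 and 22.5 CPM. The remaining 3 of the 10 were on chromosome 8, from 27202490 to 27203303 (814 bp, 22.8 and 22.0 CPM), on chromosome 13, from 9486566 to 9487283 (718 bp, 19.6 and 22.5 CPM), and on chromosome 25, from 18910144 to 18910918 (775 bp, 17.8 and 20.7 CPM). At none of the 10 did the libraries differ at an adjusted p under 0.05 (exact binomial test with Benjamini-Hochberg adjustment over all peaks). The lowest adjusted p of this test was 0.0862. The same test called 13.3% of all peaks and 29.6% of other peaks in the top 10%. With only 10 peaks, no lower share is claimed for them.

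The other 14 of the 24 had mean values from 10.6 to 17.1 CPM and widths from 388 to 1006 bp. Of all 24, 20 were at least 600 bp wide and 8 had at least 150 peaks within 500 kb. Their smaller gap ranged from 20.01 to 39.5 kb. With gaps of at least 50 kb on both sides no peak reached the top 10%. That is 0 of 64, which allows a share of up to 4.69%, so a share like the 1.99% of all members was not detectable among so few.

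The 5 members with the largest sum of gaps were 100 to 234 bp wide and had few counts, with means of 0.255 to 1.32 CPM over both libraries around the median of all isolated peaks. The largest sum of gaps, 667 kb, belonged to the peak on chromosome 22 from 27905866 to 27906053 (188 bp), which had 28 counts (1.17 CPM) in replicate 1 and 11 (0.560 CPM) in replicate 2. On chromosome 21, the peak from 29544598 to 29544831 (234 bp) had gaps of 328 and 326 kb and no other peak within 100 kb, with 22 counts (0.917 CPM) and 34 counts (1.73 CPM). These gaps are the only ones over 200 kb on both sides of a member.

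Chromosome 6 held the other 3 of the 5 largest sums. Its peak from 17283425 to 17283615 (191 bp) had 7 counts (0.292 CPM) in replicate 1 and 32 (1.63 CPM) in replicate 2. Its log2 ratio was -2.40, at an adjusted p of 0.00028 in the exact binomial test. Across the empty stretch before it, the peak from 16751449 to 16751548 (100 bp) had 11 counts and 1 count, a log2 ratio of 2.65 (adjusted p = 0.091 by the exact test). The peak from 20871216 to 20871322 (107 bp) had 31 and 17 counts, or 1.29 and 0.865 CPM. These neighbours leaned to opposite libraries, and only the first differed beyond counting error.

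The libraries were less alike at isolated peaks than at other peaks. The median absolute log2 ratio of CPM + 1 was 0.27 at isolated and 0.22 at other peaks. Across peaks, Pearson's r of log2(CPM + 1) was 0.915 over isolated and 0.963 over other peaks, as a description with no p. Neither value is matched for count, and isolated peaks had fewer counts. Within classes of summed count, the median absolute log2 ratio with 0.5 counts added was 0.73 at isolated and 0.60 at other peaks from 20 to under 50 counts. At 200 or more counts it was 0.29 and 0.21. That class has no upper limit and is not matched for count. Its isolated peaks had medians of 6.33 and 7.43 CPM in replicates 1 and 2, against 8.88 and 8.60 CPM. A two-sided exact binomial test asked at each peak whether the counts split between the libraries as the library totals do. Adjusted over the 238310 peaks with any count, it called 190 of the 1206 isolated peaks with a count (15.8%), against a background of 13.3% of all peaks. With TMM scaling the order turned, with 13.9% of isolated and 14.2% of other peaks. This test compares the libraries, not conditions.

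Nearly all of these calls pointed the same way. At 181 isolated peaks (15.0%) replicate 1 was the lower library, against a background of 8.21%, and at 9 (0.746%) replicate 1 was higher, against a background of 5.09%. With TMM scaling, 150 of the 168 isolated peaks called were lower in replicate 1, while the share of calls higher in replicate 1 was 10.7% for isolated and 56.9% for other peaks (4.74% and 38.7% with total counts). On the log2 scale, replicate 1 over replicate 2 had a median of -0.41 at isolated and -0.09 at other peaks. Since the ratio was also lower at peaks with fewer counts, it was compared within classes of summed count. It was -0.55 and -0.29 at 20 to under 50 counts for isolated and other peaks, -0.30 and -0.17 at 50 to under 100, -0.37 and -0.07 at 100 to under 200, and -0.20 and 0.06 at 200 or more. In the class of 100 to under 200 counts the test called 40 of 169 isolated peaks (23.7%), against 11.7% of other peaks. At 200 or more, 19 of 80 (23.8%) and 22.0% were called. This last class has no upper limit, so the counts within it are not matched.

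Isolated peaks were wider than other peaks in all 5 count classes, with medians of 360 and 322 bp at 100 to under 200 counts. In classes of both count and width, the median ratio of isolated peaks was lower in all 9 classes with at least 20 isolated peaks. At 100 to under 200 counts and 300 to under 400 bp, for example, it was -0.32 in 72 isolated and -0.08 in 17478 other peaks. Over all peaks of each set, the median ratio with total counts was -0.41 at isolated and -0.09 at other peaks. With TMM scaling it was -0.32 and -0.0034. These factors apply to a whole library, and scaling that varies between peaks was not examined. The cause of the lower ratios at isolated peaks was not tested.

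**Figure D5:**
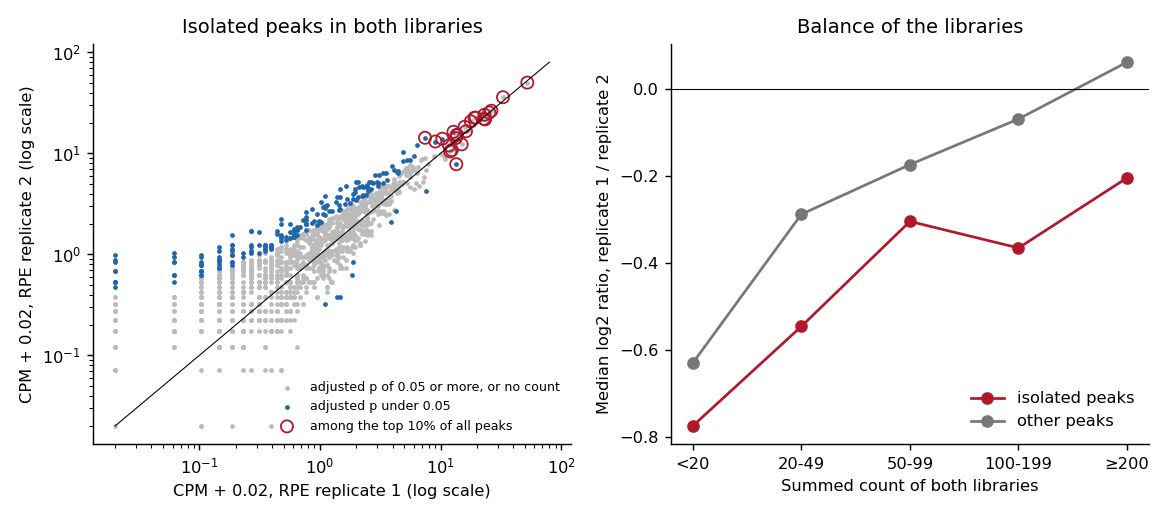
Left, CPM + 0.02 of each of the 1207 isolated peaks in RPE replicate 1 (x) and RPE replicate 2 (y), both on log scales, with the line of equality; blue points differ between the libraries at an adjusted p under 0.05 and red circles are the 24 peaks among the top 10%. Right, median of log2(replicate 1 over replicate 2) by summed count for isolated (red) and other (grey) peaks; isolated peaks lie lower in each of the 5 classes, for example -0.37 against -0.07 at 100 to under 200 counts.

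Single isolated peaks with marked ratios had few counts. Among the 521 whose summed count reached 50, the ratio ran from -2.24 to 1.54 on the log2 scale. The highest was on chromosome 12, from 9634429 to 9634664, with 44 counts in replicate 1 and 12 in replicate 2 (exact binomial test, adjusted p = 0.00736). Next were a peak on chromosome 7, from 10138125 to 10138495, with 45 and 16 counts, and a peak on chromosome 11, from 40029838 to 40030020, with 39 and 14 counts, which at an adjusted p of 0.0578 by the exact test was not called.

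The lowest ratio was on chromosome 5, from 57666853 to 57667166, with 11 counts in replicate 1 and 44 in replicate 2 (exact binomial test, adjusted p = 2.99e-05). Chromosome 14 followed with 11 and 39 counts from 18259926 to 18260284, and chromosome 18 with 13 and 39 counts from 11496992 to 11497342. The lowest ratios were thus further from 0 than the highest, in a set of 521 peaks whose median ratio was itself -0.31.

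Of the 24 strongly open members, 5 differed between the libraries (20.8%), against 29.6% of other peaks in the top 10% and 13.3% of all peaks. All 5 were outside the first 10. Replicate 1 was lower at 4 of them, most at the peak on chromosome 19 from 27422098 to 27422711, with 7.42 CPM in replicate 1 and 14.2 CPM in replicate 2. Its log2 ratio was -0.94, at an adjusted p of 5.69e-09 in the exact binomial test. It was higher at 1, on chromosome 15 from 11042478 to 11043395, with 13.5 and 7.78 CPM and a log2 ratio of 0.79, at an adjusted p of 2.63e-06 in the exact binomial test. These 2 peaks were singled out after their values were seen.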

How the data were processed

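The authors tagmented sorted RPE cells, mapped paired ends to danRer10 with Bowtie2, removed duplicates with Samtools rmdup, shifted read starts to the transposase site and kept pairs with short inserts. The deposited values are raw counts per peak, not scaled, over the same peak list in both libraries. MACS2 is named in the submitters' processing notes without a role. How libraries entered peak calling, singly or merged, and what was counted, reads or pairs, is not given in the sources used here. The study reports 238369 open regions from NR and RPE precursors, the same number as listed here. Some weak isolated peaks may therefore have been listed for the NR. Duplicate removal can lower the counts of strong peaks.

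CPM was computed with each library's total over all peaks. Gaps were taken from the end of a peak to the start of the next. Positions are 1-based. Ratios of single peaks had 0.5 counts added. The binomial test (smaller tail doubled) was adjusted over all peaks at 0.05. It was also run on counts simulated with counting error only. Those had no further variation between replicates, so that run does not show how the test behaves on real libraries. TMM factors came from edgeR 4.0.16 and size factors from DESeq2 1.42.0 (R 4.3.3), as alternatives only. The rest was computed in Python 3.11.15 with pandas 2.3.3, scipy 1.17.1, matplotlib 3.10.9 and numpy 2.4.6. Alternatives were other gap minimums, chromosome 4 as a whole or left out, weak peaks removed before or after gaps were measured, peaks at the smallest width left out, other scalings, pseudocount and ranking, and single replicates. Named regions were the 10 isolated peaks of highest mean CPM, the 5 with the largest sum of gaps, the 3 highest and 3 lowest ratios with at least 50 counts, and the 5 longest empty stretches. The members and rules were chosen with earlier results of these data known. Genes and sequences of danRer10 were not used here. The study calls its libraries biological replicates.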

Additional observations from a re-analysis of the deposited data

Results flagged for a closer look

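Peaks that meet the same gap rule on chromosome 4 from 30 to 70 Mb stood outside the comparisons of the report and entered only the alternative with all of chromosome 4. They carried signal above what a count of 0 allows. Of 652 peaks there, 176 (27.0%) had at least 20 kb on both sides. Their median was 0.958 CPM in replicate 1 and 1.02 CPM in replicate 2, above the limits of 0.125 and 0.153 CPM that 3 counts give, and their median width was 200.5 bp. Isolated peaks elsewhere had 0.792 and 1.07 CPM, and the difference was not tested.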

How the results depend on the processing

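Across 75 values of 9 results under alternative settings, 40 stayed and 35 moved, where any change of a width or an absolute ratio counted as moved. Median width, CPM and CPM per kb of isolated peaks were below those of other peaks under every alternative run. Leaving out chromosome 4 whole was chosen after the data were seen and gave 1158 isolated peaks, and none of the other 4 results it was applied to counted as moved (15.8% differed between the libraries). With a minimum gap of 10 kb there were 7233 isolated peaks with a median width of 221 bp, a share of counts of 1.61%, 3.22% in the top 10% and a median absolute log2 ratio of 0.26. With 30 kb these values were 339, 207 bp, 0.0538%, 1.18% and 0.26. With 50 kb they were 64, 187.5 bp, 0.00693%, 0% and 0.21 (0.22 for other peaks, so the order turned), and 57.8% had at least 10 counts in both libraries and 9.38% differed between them. A stricter rule leaves fewer peaks, and what else moved these values was not tested. With all of chromosome 4 the width was 209 bp and the ratio 0.27. When peaks under 10 counts in either library were removed before gaps were measured, 2259 peaks were isolated, with 265 bp, 1.53 CPM, a share of counts of 0.557%, 2.79% in the top 10%, 100% with at least 10 counts by construction, and a ratio of 0.26. Isolated peaks that themselves reached 10 counts in each library had 262 bp, 1.62 CPM, 6.22 CPM per kb and a ratio of 0.28. Leaving out peaks at the smallest width gave 224 bp, and ranking by CPM per kb put 1.57% in the top 10%. The absolute ratio was 0.55 with a pseudocount of 0.1 CPM, 0.26 with TMM and 0.26 with DESeq2 size factors. DESeq2 factors called 169 isolated peaks as differing, 150 of them lower in replicate 1, and TMM called 168, again with 150 lower in replicate 1. Against the share of other peaks that differed, isolated peaks were above it with total counts (15.8% and 13.3%) but below it with TMM (13.9% and 14.2%) and DESeq2 (14.01% and 14.3%), so these data give no order for that share. Single replicates stayed within 1 SD, as they must with 2. No paired analysis was possible because all libraries belong to a single group.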

Other observations

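A run of 3 isolated peaks on chromosome 4 beyond the part left out, chosen after its values were seen, had counts in 1 library only. The peaks from 73930508 to 73930707, 74035002 to 74035195 and 74082746 to 74082849 had 2, 4 and 2 counts in replicate 1 and 0 in replicate 2. A count of 0 allows up to 0.153 CPM per peak in replicate 2. In replicate 1 the first and last of these peaks were below that limit, with 0.0833 CPM each. The middle peak was slightly above it, with 0.167 CPM. The run as a whole was not tested, so no difference between the libraries is claimed.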
